A study of Mus musculus with 5 samples.

Results

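The tumour suppressor gene Trp53, its paralogue Trp73 and 4 genes that control or bind p53 (Mdm4, Usp7, Ppm1d and Trp53bp1) were followed across organoids of the mouse stomach. Organoids are epithelial cell clusters grown in a gel. All array probes whose transcript accession belongs to 1 of these 6 genes were taken, which gave 16 of the 56573 usable probes, and 6 of the 23779 genes that could be named. Of these probes, Trp53 has 1, Trp73 has 3, Mdm4 and Trp53bp1 have 4 each, and Usp7 and Ppm1d have 2 each.

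RNA was measured on 5 one-colour Agilent arrays, 1 per sample. Tumour-derived organoids came from tumours grown under the skin, and all 4 are labelled as having lost Trp53. A hairpin against Cdh1, the gene of the cell adhesion protein E-cadherin, was added in 2 of them (shCdh1 #1 and shCdh1 #2). The other 2 carry Apc580D, a lesion of the Wnt pathway inhibitor Apc, and Pik3caH1047R, an activated form of the PI3-kinase subunit Pik3ca. Their control was 1 organoid line from Trp53flox/flox mice with the pLKO.1 vector and a luciferase hairpin, shLuc, taken before inoculation. All 5 are labelled as stomach of female mice, and share a medium with EGF, R-spondin1, Noggin, Jagged-1, Y27632 and CHIR-99021, an inhibitor of the kinase Gsk3. The labels name no loss of Trp53 in the control, and do not say what removed Trp53, which exons are flanked by loxP sites, or whether the tumours grew from the control line. Separate cultures or animals are not named either. Each p-value therefore reflects in part how far these particular tumour-derived samples differ among themselves, which may in part be technical. In contrasts by genotype, only the shCdh1 pair gives that spread. The rest comes from limma, the software of the tests, which draws the variance of each probe towards that of all tested probes. The single control array adds no spread of its own, and is assumed to vary like the tumour-derived samples. The control has not been through a mouse host, so host passage and Trp53 loss cannot be told apart.

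The protein p53 is a transcription factor that responds to DNA damage and other stress by switching on genes of growth arrest, cell death and repair. Its level is held down mainly by the ubiquitin ligase Mdm2, which works with its relative Mdm4, and part of the control is a feedback loop in which p53 drives transcription of Mdm2 and of the phosphatase gene Ppm1d. In the stomach, as in many other epithelia, loss of p53 is among the most common changes of cancer.

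A level is given as log2 of the processed signal minus the 75th percentile of its array, so 0 is the 75th percentile. Between 61.8% and 65.3% of the 59305 gene spots on an array were well above background, none of them saturated, and the 75th percentile lay 24.0 to 27.9 times over the local background. Over the 30993 probes well above background on all arrays, the shCdh1 pair differed by a median of 0.27 log2, with a 95th percentile of 1.08. The array labelled Pik3caH1047R had Xist, the RNA of the inactive X chromosome, at -8.14, against -0.83 to -0.69 on the other 3 tumour arrays and -0.90 in the control. It alone had Y-linked genes above background, among them Eif2s3y at 1.35, although its label says female. Differences without this library are therefore also given below for Trp53, Trp73, Ppm1d and a Trp53bp1 probe. For other probes, other genes and the lists they are given with it only. Both shCdh1 arrays and the control were scanned on slide 1 and the arrays labelled Apc580D and Pik3caH1047R on slide 2. The stomach label was checked against 13 epithelial markers, of which 12 to 13 were above background in tumour-derived organoids and 13 in the control, with only Gkn1 missing on 3 tumour arrays. Their levels were not all alike. All 4 tumour-derived levels were below the control for Krt8, Cldn18, Gkn2, Tff1, Tff2, Pgc and Cblif, and above it for Epcam. With 1 probe a gene, 24.5% of all tested genes had all 4 below the control and 30.2% had all 4 above. The largest differences were those of Cblif (-4.41 ± 1.12 log2, SE, limma adjusted p = 0.237) and Pgc (-3.33 ± 1.35, limma adjusted p = 0.372).

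Trp53, on chromosome 11, encodes p53 itself. Its probe, A_52_P491849, read -5.06 in shCdh1 #1, -5.09 in shCdh1 #2, -5.86 in Apc580D and -4.86 in Pik3caH1047R, against 0.85 in the control. All 4 tumour-derived organoids therefore lay far below the control, with a mean of -5.22 ± 0.44 (SD, n = 4). Over all probes well above background on all arrays, the median SD of the 4 was 0.25. As processed signals with the scanner software's own error, the Trp53 readings were 26.8 ± 4.5, 29.9 ± 4.8, 19.2 ± 4.1 and 35.5 ± 5.3, against 1913 ± 191 in the control. After scaling, each tumour array held 0.951% to 1.91% of the control's level. In limma's test over all 39001 tested probes, the Trp53 difference was -6.07 ± 0.43 log2 (SE, 95% interval -7.16 to -4.98), or 67.3-fold lower in tumour-derived organoids. The Benjamini-Hochberg adjusted p was 0.0338. Trp53 was the 1 of 14 tested member probes to pass, against 0.126% of all tested probes, or 49 of 39001. It passed as lower, where 0.105% of all tested probes did, and 0.0205% passed as higher.

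**Figure D1:**
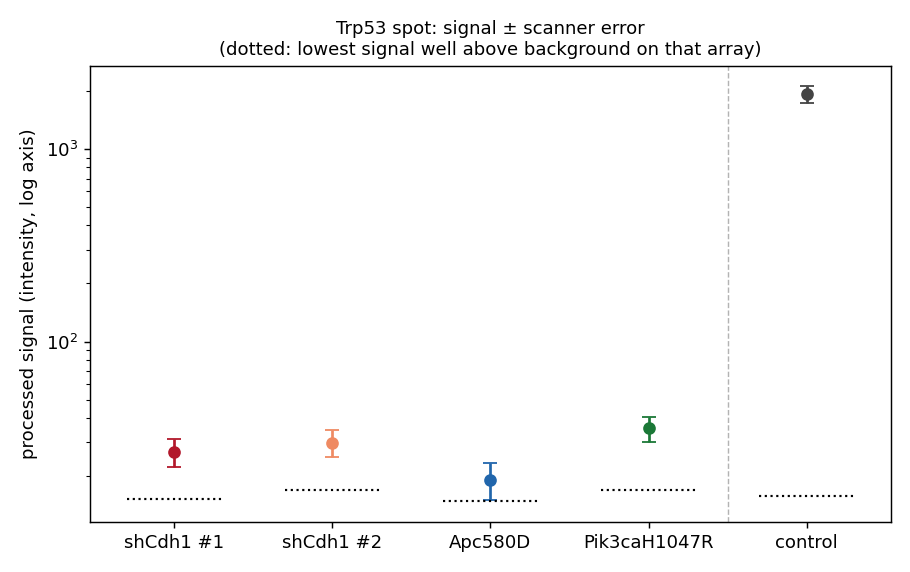
Processed signal of the Trp53 probe on a log axis, by array, with the scanner software's error as bars and the lowest signal called well above background on each array as a dash. The 4 tumour-derived organoids read 19.2 to 35.5, just over that limit, and the control reads 1913.

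The Trp53 call rested on 4 tumour arrays against 1 control array. In the fits below that lost it, no probe at all passed, so the loss was not particular to Trp53. Without shCdh1 #1 the limma difference was -6.12 (adjusted p = 0.125), without shCdh1 #2 it was -6.11 (adjusted p = 0.135), and without Pik3caH1047R it was -6.19 (adjusted p = 0.121), so each of these omissions ended the call. Without Apc580D, the difference of -5.86 still passed (adjusted p = 0.0407). With the slide as a block, which leaves the shCdh1 pair against the control of the same slide, the difference was -5.93 (adjusted p = 0.204).

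The remaining Trp53 signal was dim but was called well above background on every array. The probe stood 0.82 log2 over the lowest such probe in both shCdh1 organoids, 0.37 over it in Apc580D and 1.07 over it in Pik3caH1047R, against 6.92 in the control. The median pixel of the spot read 75, 82.5, 68 and 87.5 in the order of the arrays above, over a local background of 34, 37, 38 and 37, and in the control it read 1817 over 36. With the normexp background correction, which handles dim spots differently and here added an offset of 50, the fold fell to 17.9 (a difference of -4.16, limma adjusted p = 0.00179). The offset is larger than the processed Trp53 signals of the tumour-derived organoids, 19.2 to 35.5. The size of the fold therefore depends on the background treatment and its offset, whose parts were not tested separately. Whether the probe lies in the deleted part of Trp53 was not determined here, because no probe sequence or position was used.

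Among the tumour-derived organoids the order of Trp53 levels was Pik3caH1047R, shCdh1 #1, shCdh1 #2 and Apc580D, with 2.01-fold between the ends. The scanner errors, which belong to the signals before scaling, overlapped among Pik3caH1047R and both shCdh1 organoids. That of Apc580D overlapped with that of shCdh1 #1, and not with that of shCdh1 #2, its neighbour in the order of levels. In a fit with 1 mean per genotype, Trp53 was -5.93 ± 0.27 in shCdh1, -6.72 ± 0.32 in Apc580D and -5.71 ± 0.32 in Pik3caH1047R relative to the control (log2 ± SE). None of these differences passed limma's test, with adjusted p-values of 0.422, 0.286 and 0.338, where the unadjusted p-values were 0.000174, 0.000185 and 0.000305. In each of these 3 contrasts 0 of the 39001 probes passed, while 4057, 3533 and 4532 probes had an unadjusted p below 0.05 (10.4%, 9.06% and 11.6%). Between shCdh1 and the mean of the other 2 lesions, Trp53 differed by 0.28 ± 0.22 log2 (95% interval -0.42 to 0.98, limma adjusted p = 0.963), and this contrast called 0 probes, with 2261 (5.8%) below 0.05 unadjusted.

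Markers of other cell types that a tumour could bring along are given here beside the Trp53 signal. Of 8 fibroblast markers, 2 to 5 were above background in tumour-derived organoids and 2 in the control. Their summed linear level was 0.10 to 0.27 times the 75th percentile, against 0.08 in the control, and Col3a1, Lum and Pdgfrb were above background on no array. Of 8 leukocyte markers, 4 to 6 were above background in tumour-derived organoids, against 5 in the control, with summed levels of 16.02 to 20.97 against 11.68. Most of each sum came from Cd68 and Itgam, which were also high in the control. Cd68 read 3.03 to 3.84 in tumour-derived organoids, against 2.51, and Itgam 2.06 to 2.56, against 2.06. The pan-leukocyte gene Ptprc was above background in shCdh1 #1, shCdh1 #2 and Apc580D, at -4.86, -4.75 and -4.63, and not in Pik3caH1047R or the control. The macrophage genes Adgre1 and Lyz2 were above background on no array. Of 5 endothelial markers, 2 to 3 were above background in tumour-derived organoids and 2 in the control, and their sums were 0.09 to 0.15 against 0.23. Emcn was above background in the control alone, at -2.54, and Kdr in shCdh1 #2, Apc580D and Pik3caH1047R alone, at -4.18, -4.87 and -5.18. The part of these cells in the Trp53 signal was not tested, and in bulk RNA fewer cells of a type and less RNA per cell cannot be told apart.

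The Trp53 gene starts head to head with Wrap53, which encodes a protein of Cajal bodies and telomerase. The stretch between the 2 annotated starts is shown because 1 of the 2 genes differed on the arrays and the other did not differ beyond its error. It has 108 bases and lies at chr11:69580251-69580358 on the plus strand of GRCm38.p6 (RefSeq). Capitals mark a match to the p53 half-site consensus.
Trp53 and Wrap53, between starts: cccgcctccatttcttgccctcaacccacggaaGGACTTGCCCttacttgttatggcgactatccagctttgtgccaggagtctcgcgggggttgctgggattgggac
The half-site, the 10-letter unit of which p53 binds a pair, was searched on both strands of windows with 250 bases before and 50 bases after each annotated start. It occurred in 8.36% of 32851 such windows and in 2 of the 8 windows of the 6 genes, those of Trp53 and Ppm1d. A match describes letters only, and binding was not measured.

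Wrap53 itself read 2.10 in shCdh1 #1, 2.01 in shCdh1 #2, 2.01 in Apc580D and 2.14 in Pik3caH1047R, against 2.09 in the control. The tumour-derived levels lay on both sides of the control, and the difference was -0.02 ± 0.21 log2 (limma adjusted p = 0.978). On the other side of Trp53, Atp1b2, a sodium pump subunit, was above background on no array. Of the 12 protein-coding genes nearest to Trp53, 6 on each side in RefSeq order, 9 were above background on all 5 arrays. Their differences ran from -0.39 for Mpdu1 to 1.33 for Sat2, a polyamine acetyltransferase relative. Sat2 read 0.66, 1.13, 1.36 and 0.93 in the tumour-derived organoids, against -0.31 in the control (limma adjusted p = 0.231). None of the 9 passed the test that Trp53 passed, where only 0.126% of all tested probes did.

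**Figure D2:**
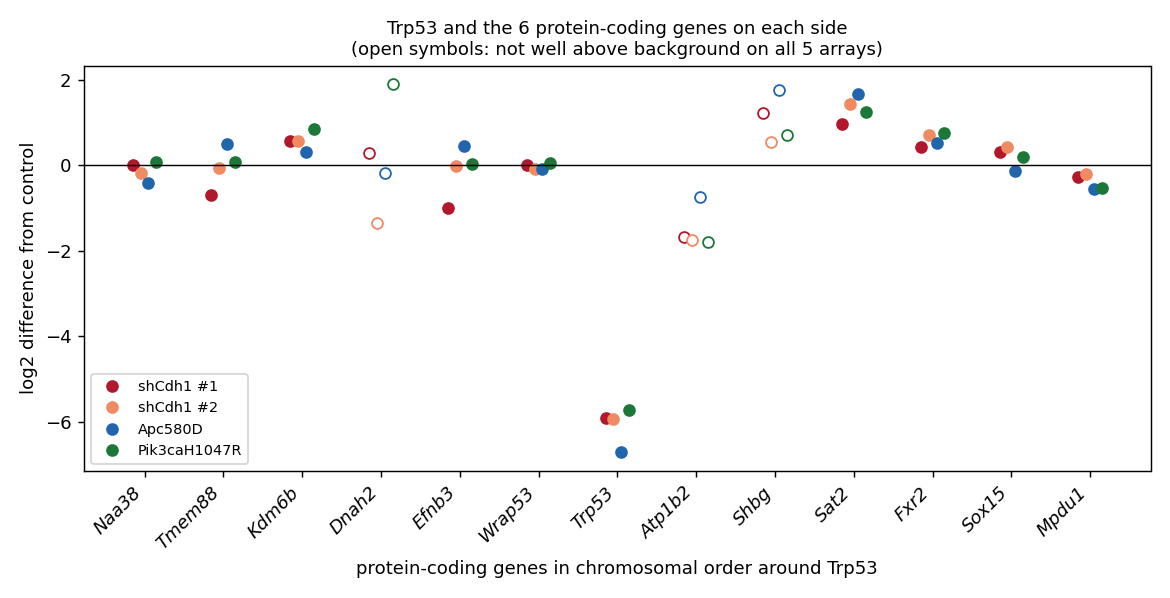
Difference of each tumour-derived organoid from the control (log2) for Trp53 and the 6 protein-coding genes on each side, in RefSeq order. Each point is an array, and open symbols mark genes not well above background on all 5 arrays. The mean difference was -6.07 for Trp53 and between -0.39 and 1.33 for the neighbours well above background on all 5 arrays.

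The paralogue Trp73, on chromosome 4, encodes p73, which shares the DNA-binding domain of p53 and can act on some of the same genes. Probe A_52_P410636 read -2.57 in shCdh1 #1, -2.57 in shCdh1 #2, -2.88 in Apc580D and -2.89 in Pik3caH1047R, against -2.70 in the control. Both shCdh1 arrays lay above the control and both arrays of slide 2 below it, by at most 0.19 log2. Across the 4, the difference was -0.03 ± 0.26 (95% interval -0.69 to 0.63, limma adjusted p = 0.979), and it was 0.13 within slide 1 and 0.03 without Pik3caH1047R. The other 2 probes of Trp73, A_52_P193555 and A_55_P1988133, were well above background on no array and were not tested. They read -8.34 to -7.97 and -7.61 to -6.37 in tumour-derived organoids, against -8.08 and -6.51 in the control.

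The third gene of the family, Trp63, whose product p63 maintains stratified epithelia, was read by A_55_P2161055 at 2.25, 1.90, 2.00 and 2.11 in the tumour-derived organoids, against 1.56 in the control. All 4 were above the control, by 0.51 ± 0.24 log2 on average, which did not pass (limma adjusted p = 0.434). A second Trp63 probe, A_51_P216550, was above background on no array.

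**Figure D3:**
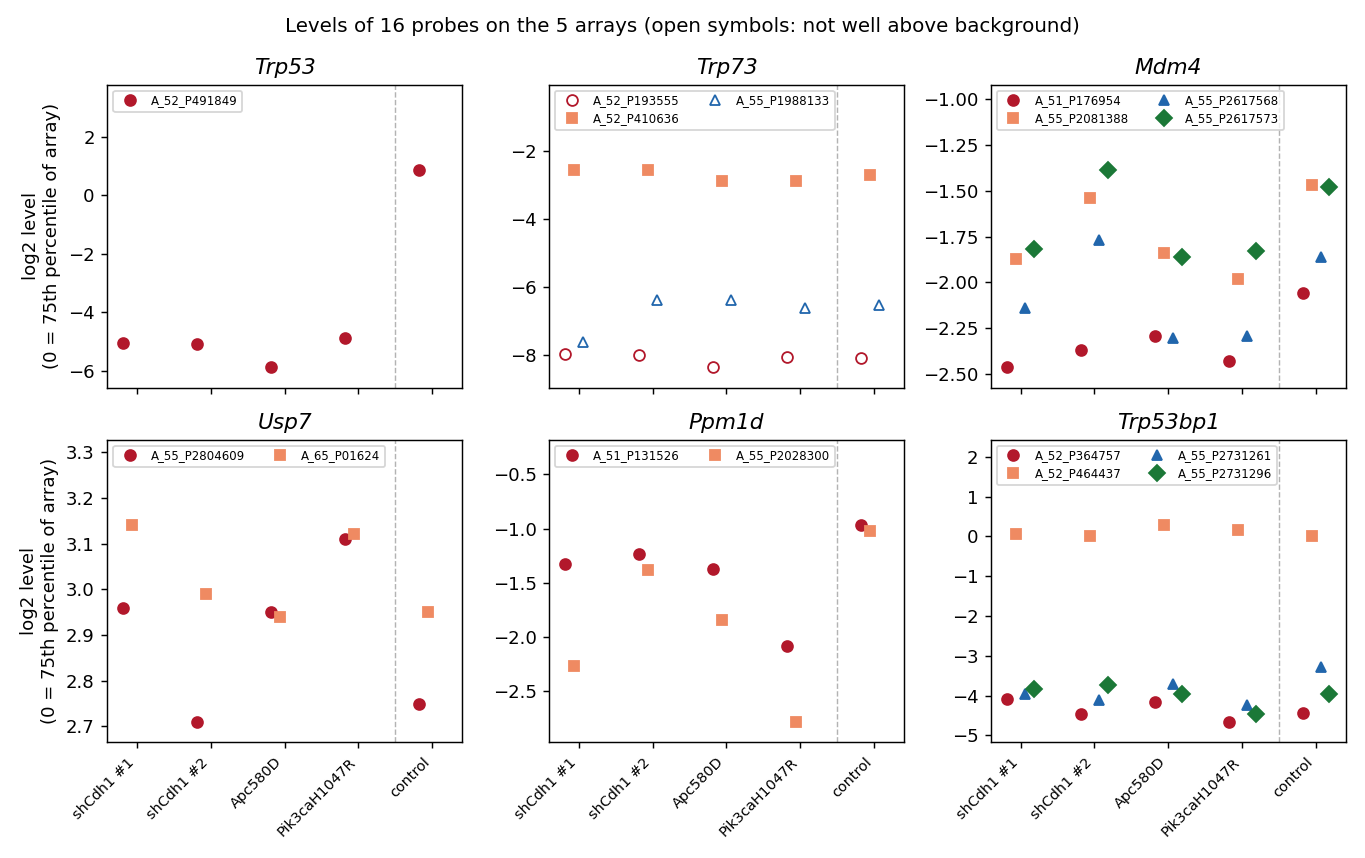
Level of each of the 16 probes on the 5 arrays (log2, where 0 is the 75th percentile of the array), 1 panel per gene and 1 symbol per probe, with open symbols for values not well above background. Trp53 alone separates by more than 3 log2 units on this scale, and both Ppm1d probes are lowest in Pik3caH1047R.

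Mdm4, on chromosome 1, encodes the Mdm2 relative that binds and blocks the activation domain of p53. Probe A_51_P176954 read -2.46, -2.37, -2.29 and -2.43 in shCdh1 #1, shCdh1 #2, Apc580D and Pik3caH1047R, against -2.06 in the control. The second probe, A_55_P2081388, read -1.87, -1.54, -1.84 and -1.98, against -1.47 in the control. On both of these probes, annotated to the same transcript, every tumour-derived level lay below the control. Probes A_55_P2617568 and A_55_P2617573, annotated to another Mdm4 transcript, read -2.30 to -1.77 and -1.86 to -1.39 in tumour-derived organoids, against -1.86 and -1.48 in the control. Here shCdh1 #2 was above the control and the other 3 were below it.

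The 4 Mdm4 differences lay between -0.33 and -0.25 log2 with standard errors of 0.22 to 0.29. None passed limma's test (adjusted p = 0.571 to 0.754). The widest interval, for A_55_P2617568, ran from -1.01 to 0.49, and so reaches a level 2-fold lower. Mdm2 is the partner of Mdm4 and itself a target of p53. It read 2.83, 2.91, 2.64 and 2.76 in the tumour-derived organoids, against 4.18 in the control, and every tumour-derived level was lower. That difference, 2.64-fold lower or -1.40 ± 0.23 log2, did not pass (limma adjusted p = 0.163), and a second Mdm2 probe gave -1.59 ± 0.24 (adjusted p = 0.147).

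Usp7, on chromosome 16, encodes a protease that removes ubiquitin from p53, Mdm2 and Mdm4. Probe A_55_P2804609 read 2.96 in shCdh1 #1, 2.71 in shCdh1 #2, 2.95 in Apc580D and 3.11 in Pik3caH1047R, against 2.75 in the control. Probe A_65_P01624 read 3.14, 2.99, 2.94 and 3.12, against 2.95 in the control. On each probe 1 tumour-derived organoid was below the control and 3 were above it. The differences were 0.19 ± 0.25 (95% interval -0.45 to 0.83) and 0.10 ± 0.22 (95% interval -0.47 to 0.67), with limma adjusted p-values of 0.798 and 0.887, and the second turned to -0.04 when arrays were centred on their medians.

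Ppm1d, on chromosome 11 and some distance from Trp53, encodes Wip1, a phosphatase that reverses damage signalling on p53, Atm and other proteins. Its upstream stretch is shown because it was the only window of the 6 genes with both motifs searched. It holds the 250 bases before the annotated start, chr11:85311004-85311253 on the plus strand of GRCm38.p6 (RefSeq). Capitals mark, in order, a p53 half-site match and TGACGTCA, the full cyclic AMP response element, which lie apart from each other.
Ppm1d, upstream: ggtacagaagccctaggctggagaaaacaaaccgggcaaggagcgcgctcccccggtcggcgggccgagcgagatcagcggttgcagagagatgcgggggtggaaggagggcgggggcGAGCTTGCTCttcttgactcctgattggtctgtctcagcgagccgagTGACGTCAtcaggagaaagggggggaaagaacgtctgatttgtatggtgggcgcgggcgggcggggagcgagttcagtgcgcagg
TGACGTCA, which reads the same on both strands, occurred in 1.79% of the 32851 windows, and among the windows of the 6 genes in this one.

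Ppm1d probe A_51_P131526 read -1.33 in shCdh1 #1, -1.23 in shCdh1 #2, -1.37 in Apc580D and -2.08 in Pik3caH1047R, against -0.97 in the control. Probe A_55_P2028300 read -2.27, -1.38, -1.84 and -2.78, against -1.02 in the control. All 8 tumour-derived readings lay below the control, and Pik3caH1047R was lowest on both probes, with 46.3% and 29.6% of the control's level. In the other 3 organoids the first probe held 75.9% to 83.5% of the control's level and the second 42.1% to 77.7%.

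Across the 4 organoids the Ppm1d differences were -0.53 ± 0.39 (95% interval -1.53 to 0.46) and -1.05 ± 0.55 log2 (95% interval -2.44 to 0.34). Neither passed limma's test (adjusted p = 0.609 and 0.472). For Pik3caH1047R alone against the control they were -1.11 ± 0.32 (limma adjusted p = 0.409) and -1.76 ± 0.59 (limma adjusted p = 0.436). Without that library, whose sex genes go against its label, they were -0.34 and -0.81 (adjusted p = 0.687 and 0.565). Among the tested member probes other than Trp53, only these 2 differed 2-fold or more from the control on any array. With Trp53 included, 2, 1, 1 and 3 of the 14 tested member probes lay 2-fold or more below the control in shCdh1 #1, shCdh1 #2, Apc580D and Pik3caH1047R, where 7.38%, 7.46%, 5.9% and 8.82% of all tested probes did.

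Trp53bp1, on chromosome 2, encodes a chromatin reader that gathers at DNA breaks, favours end joining over resection and can bind p53. Probe A_52_P464437 read 0.07 in shCdh1 #1, 0.01 in shCdh1 #2, 0.28 in Apc580D and 0.17 in Pik3caH1047R, against 0.01 in the control. The difference was 0.12 ± 0.23 (95% interval -0.46 to 0.71, limma adjusted p = 0.859), and with arrays centred on their medians it was -0.02. Probe A_55_P2731261 read -3.96, -4.10, -3.70 and -4.25, against -3.29 in the control. Here every tumour-derived level was below the control, by 0.71 on average (-0.71 ± 0.29, 95% interval -1.44 to 0.02, limma adjusted p = 0.373).

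Probe A_52_P364757 of Trp53bp1 read -4.66 to -4.09 in tumour-derived organoids, against -4.45 in the control, a difference of 0.11 ± 0.31 (limma adjusted p = 0.909). Probe A_55_P2731296, annotated to another Trp53bp1 transcript, read -4.46 to -3.73, against -3.97 in the control (-0.03 ± 0.34, limma adjusted p = 0.986). The 3 probes of the transcript that A_52_P464437 reads did not share a sign, and no single direction can be given for Trp53bp1.

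**Figure D4:**
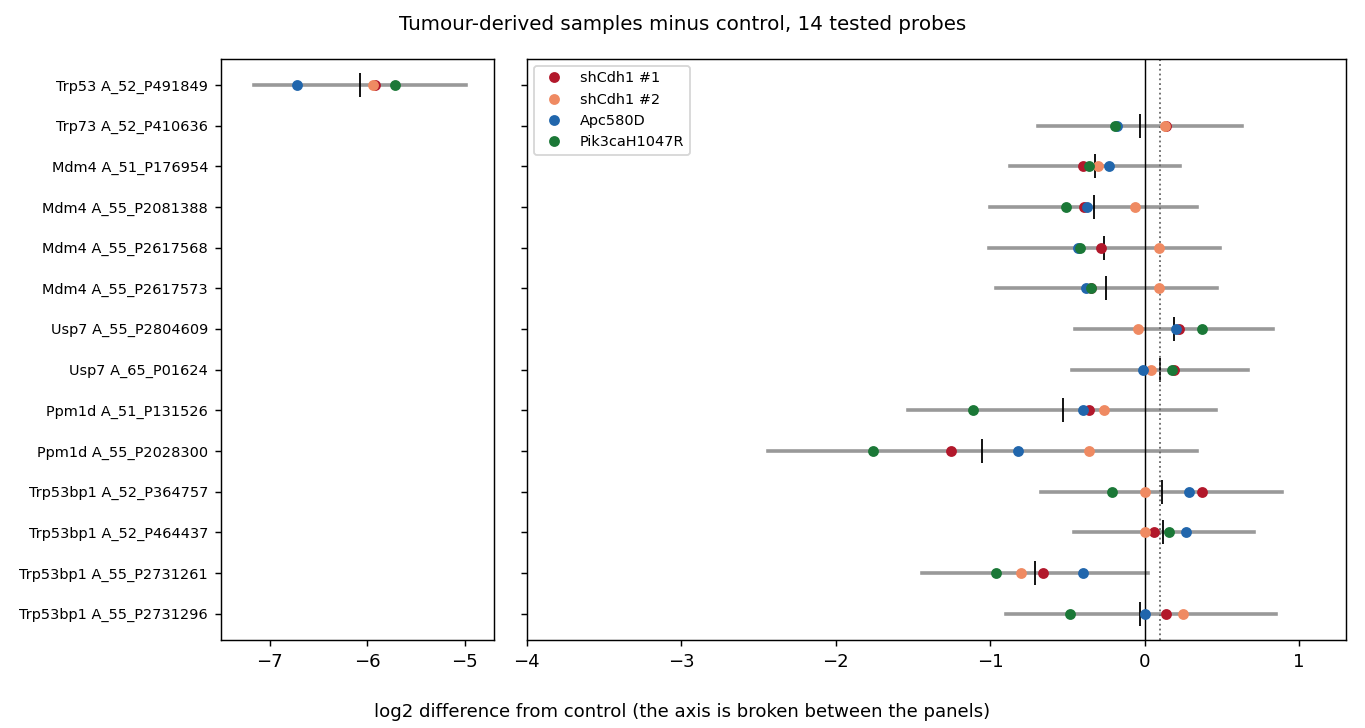
Difference between tumour-derived organoids and control (log2) for the 14 tested probes, with the 95% interval of the limma fit as bars. Trp53 lies at -6.07, and the other 13 probes lie between -1.05 and 0.19 with intervals that all include 0.

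Apart from Trp53, the 13 tested member probes differed by -1.05 to 0.19 log2 with adjusted p-values of 0.373 to 0.986. Every one of the 4 tumour-derived levels was below the control on 6 of the 14 tested probes, where 21.3% of all tested probes were so. Mdm4 and Ppm1d gave 2 of those probes each. All 4 were above the control on 1 of the 14, A_52_P464437 of Trp53bp1, where 32.3% of all tested probes were so. With 1 probe a gene, 2 of the 6 genes had all 4 below, Trp53 and Ppm1d, against 24.5% of all genes. By the same count 1 had all 4 above, Trp53bp1, against 30.2%. The median difference of all tested probes was 0.10 log2 on the main scale, against which these small differences should be read.

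Genes whose 5-array profile, centred on its own mean, lay nearest to that of Trp53 were sought among 15635 genes by Euclidean distance over the 5 samples. Nearest were Emcn at 0.70, Runx1t1 at 1.11, Inka2 at 1.11, Dglucy at 1.32 and Ak1 at 1.42 log2 units. The first 3 were above background in the control alone. Their tumour-derived values are background readings, so their nearness to Trp53 rests mainly on their level in the control. Ak1, an adenylate kinase, read -3.04, -3.54, -2.81 and -2.77 in the tumour-derived organoids, against 2.02 in the control. For the measured Trp73 probe the nearest profiles were those of Slc6a20a, Slc15a4, Svep1, Ppp1r7 and Lamtor4, at 0.05 to 0.07.

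Other genes that act on p53 were read from a list of 51, of which 50 were tested. Of these, 0 passed the test lower and 1 higher, Cdkn2a, where 0.114% of the 17554 genes passed lower and 0.0228% higher with 1 probe a gene. At an unadjusted p below 0.05, 1 of the 50 was lower and 3 were higher, where 6.54% of all genes were lower and 6.89% higher (13.8% of all tested probes in either direction). Cdkn2a encodes p16Ink4a, an inhibitor of Cdk4 and Cdk6, and in another reading frame p19Arf, which restrains Mdm2. Probe A_55_P2008437 read 6.01, 5.98, 5.75 and 5.74 in the tumour-derived organoids, against 2.07 in the control, so every tumour-derived level was higher, by 13.9-fold (3.80 ± 0.24 log2, limma adjusted p = 0.0206). A second probe, A_51_P144813, was 18.6-fold higher (4.21 ± 0.25, limma adjusted p = 0.0188). No probe at all passed without shCdh1 #1, without shCdh1 #2 or without Pik3caH1047R, or with slide as a block, so in those fits the Cdkn2a call was lost too.

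Of the 50 p53 regulators, 10 (20.0%) had all 4 tumour-derived levels below the control, against 24.5% of all genes, and 18 (36.0%) had all 4 above, against 30.2%. Their median difference was 0.04 log2, beside 0.06 for all genes. Largest after Cdkn2a and Mdm2 were Yy1 (0.75 ± 0.26, limma adjusted p = 0.315), a partner of Mdm2 in p53 ubiquitination, and Hipk2 (-0.68 ± 0.46, adjusted p = 0.576), a kinase of p53. Usp28, a deubiquitinase that works with Trp53bp1 to stabilise p53, read 0.15, 0.24, 0.40 and 0.31 in the tumour-derived organoids, against -0.39 in the control (0.66 ± 0.23, limma adjusted p = 0.316). Csnk1d, a casein kinase that phosphorylates p53, was below the control on all 4 arrays (-0.63 ± 0.26, limma adjusted p = 0.375).

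Of 30 tested p53 targets, 1 passed lower and 0 higher, where 0.114% and 0.0228% of all genes did. At an unadjusted p below 0.05 in limma's test, 18 were lower and 1 higher, against 6.54% and 6.89% of all genes. In all, 23 (76.7%) had all 4 tumour-derived levels below the control and 2 (6.7%) had all 4 above, against 24.5% and 30.2% of all genes, and their median difference was -1.15 log2. The gene that passed was Eda2r, a receptor of the tumour necrosis factor family, which was above background in the control alone and at least 49.4-fold lower in tumour-derived organoids (limma adjusted p = 0.00779). It was tested through its control reading alone, so its p rests on background readings in the tumour-derived organoids. Among the 29 targets above background on all 5 arrays, 0 passed, 17 were lower and 1 higher at an unadjusted p below 0.05, and the median was -1.04. The bound for Eda2r sets the control against the lowest signal well above background on each tumour array. Ccng1, the cyclin G gene, was at -2.86 ± 0.29 (limma adjusted p = 0.0804) and Zmat3, a zinc finger gene, at -2.84 ± 0.36 (adjusted p = 0.117). Larger but more variable were the stress genes Ddit4l (-3.99 ± 0.57, adjusted p = 0.138) and Gdf15 (-3.03 ± 0.81, adjusted p = 0.251), and Phlda3, which restrains Akt (-3.84 ± 0.94, adjusted p = 0.229). The list was chosen with earlier results of these data known, so its direction is no independent evidence.

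**Figure D5:**
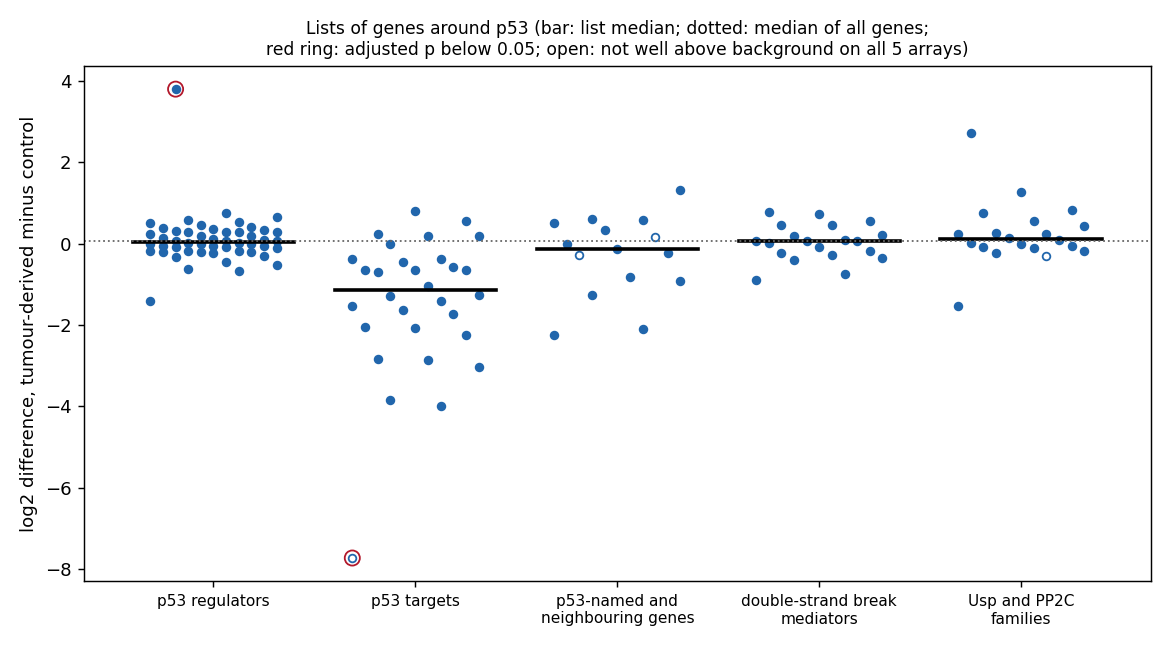
Difference between tumour-derived organoids and control (log2) for each tested gene of 5 lists, 1 point a gene, with a bar at the list's median. The medians are -1.15 for p53 targets and between -0.13 and 0.11 for the other 4 lists, beside 0.06 for all genes.

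Among 15 tested genes named after p53 or lying next to it, 0 passed limma's test, and 5 had an unadjusted p below 0.05, 4 lower and 1 higher, where 6.54% and 6.89% of all genes did. Trp53inp1, a p53 target that promotes autophagy and cell death, was at -2.25 ± 0.63 (limma adjusted p = 0.262). Of 20 tested partners of Trp53bp1 in the response to DNA breaks, 0 passed, with 1 lower and 2 higher at an unadjusted p below 0.05, near the shares of all genes (6.54% and 6.89%). Of these partners, 8 (40.0%) lay below the control on all 4 arrays and 5 (25.0%) above, against 24.5% and 30.2% of all genes. Shld1 of the shieldin complex, which acts after Trp53bp1, read -0.87, -0.71, -0.36 and -1.31, against 0.08 in the control (-0.90 ± 0.39, limma adjusted p = 0.399). Its partner Shld3 lay the other way (0.78 ± 0.22, adjusted p = 0.271). Lig4, the ligase of end joining, was at -0.74 ± 0.27 (adjusted p = 0.339), and the damage response scaffold Topbp1 at 0.73 ± 0.26 (adjusted p = 0.325). Mdc1, which binds marked chromatin at breaks ahead of Trp53bp1, was at 0.55 ± 0.30 (adjusted p = 0.491) and Brca1, which opposes Trp53bp1 in favour of resection, at 0.46 ± 0.28 (adjusted p = 0.526).

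Relatives of Usp7 and Ppm1d, the ubiquitin proteases and the PP2C phosphatases, gave 0 calls among 20 tested genes, with 1 lower and 3 higher at an unadjusted p below 0.05, against 6.54% and 6.89% of all genes. The relative of Ppm1d that differed most, Ppm1j, read 0.23, 1.03, 0.26 and 0.42 in the tumour-derived organoids, against -2.25 in the control. All 4 were higher, by 6.65-fold, which did not pass (2.73 ± 0.38, limma adjusted p = 0.130). Ppm1h read -1.63, -1.21, -1.05 and -2.02, against 0.06 in the control, so all 4 were lower (-1.53 ± 0.42, limma adjusted p = 0.257). Among the relatives of Usp7, Usp11 was at 1.27 ± 0.32 (limma adjusted p = 0.232) and Usp22, a subunit of the SAGA complex, at 0.75 ± 0.25 (adjusted p = 0.308).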

How the data were processed

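Per the file headers, the deposited scanner files hold for each spot a processed signal, an intensity that the scanner software had already corrected for background. Per the submitters' processing notes that software was Agilent Feature Extraction 11.0.1.1. Per the labels' protocols, total RNA was labelled with Cy3. Values in a table deposited by the authors are log2 levels. The difference of each tumour array from the control in that table equalled that of the scanner values scaled as here, apart from 1 constant per array between -0.0458 and -0.0233 (slope 1 over 53335 probes). Levels were not equal, and how the table was centred was not stated. The column medians were 0.073, 0.031, -0.079 and 0.022 in shCdh1 #1, shCdh1 #2, Apc580D and Pik3caH1047R, and -0.057 in the control.

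From the processed signal, log2 minus the 75th percentile of each array was taken, control and outlier spots were left out and spots of a probe averaged, which left 56573 probes. Probes were named through their transcript accession in RefSeq (GRCm38.p6): 34549 had 1 gene symbol, 22024 none. Probes well above background on at least 1 array, 39001 in all, entered lmFit and eBayes of limma 3.58.1 (R 4.3.3), with Benjamini-Hochberg adjustment over all of them and a threshold of 0.05. One fit set the 4 tumour-derived samples against the control (3 residual degrees of freedom, all from the tumour-derived samples). Another had 1 mean per genotype, with 1 residual degree of freedom from the shCdh1 pair. In that fit the single arrays have no replicate, and are assumed to vary like the shCdh1 pair. In both fits eBayes drew the variance of each probe towards a value shared by all tested probes. Total degrees of freedom were thereby 5.2 in the first fit and 3.1 in the second. For Trp53 the shCdh1 pair differed by 0.03 log2, while the standard error of shCdh1 against the control was 0.27. The script was tested on simulated data. For lists, 1 probe a gene was used.

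The named genes are all member probes, the genes past the threshold, those that differed most within each list, the neighbours of Trp53 and the nearest profiles. Genes and lists were chosen with earlier results of these data known. The number of arrays limits the precision. Alternatives changed background correction (normexp with an offset of 50), scaling, filter, floor, slide and samples.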

Additional observations from a re-analysis of the deposited data

Results flagged for a closer look

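For each of the 14 tested member probes, the highest or lowest of the 4 tumour-derived levels was checked for a gap to the next that is large for the range. Chance flags about 5% of such groups. On Mdm4 probe A_55_P2617573, shCdh1 #2 stood high at -1.39, against -1.86 to -1.82 in the other 3 tumour-derived organoids, and the gap was 0.928 of the range, over Dixon's 95% critical value. On Ppm1d probe A_51_P131526, Pik3caH1047R stood low at -2.08, against -1.37 to -1.23 in the other 3, with a gap of 0.838 of the range.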

How the results depend on the processing

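Of 304 alternative values of single member probes, 287 kept their direction and, where a p could be computed, their side of the threshold. Another 4 lost the call, 3 gained it and 10 turned sign. Member probes passing numbered 1 in the main setting, 0 with slide as a block and 0 to 1 when 1 tumour-derived sample was left out. Probes passing numbered 49, and 110 with normexp background, 31 among probes above background on all arrays, 80 with dim values raised to a floor, 21 with 1 probe per gene (fewer tested), 0 with slide as a block (4333 at an unadjusted p below 0.05) and 0 to 29 with a sample left out. With normexp, 1 member probe, Trp53, passed in each genotype against the control (-4.08, -4.43 and -4.06), against 0 in the main setting. Sign turned for Trp73 A_52_P410636 with the slide block (0.13) and with a sample left out (-0.08 to 0.03), for Usp7 A_65_P01624 (-0.04), Trp53bp1 A_52_P364757 (-0.03) and A_52_P464437 (-0.02) with median centring, for A_52_P364757 with quantile normalization (-0.05), and for A_55_P2731296 with normexp (0), the slide block (0.19) and without Pik3caH1047R (0.13, with -0.12 to 0.13 over all samples left out in turn). Beyond fewer probes or samples, the cause was not tested. The median difference of all probes was 0.10, and between -0.05 and 0.06 with other scalings. No paired analysis was possible because the control, Apc580D and Pik3caH1047R have 1 sample each. For the same reason the slide could not be fitted beside genotype, and leaving out a shCdh1 sample left no residual degrees of freedom in that fit. Dim probes such as Trp53 in tumour-derived organoids are limited by signal over background.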

Other observations

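Some p53-named genes and p53 targets did not read alike in the 4 tumour-derived organoids. Trp53i11, a p53-induced gene, read -0.73 and -0.23 in the shCdh1 pair, and 1.57 and 1.55 in Apc580D and Pik3caH1047R, against 2.63 in the control. Phlda3, a p53 target that restrains Akt, read -0.76 and 0.09 in the shCdh1 pair, and 1.52 and 1.34 in Apc580D and Pik3caH1047R, against 4.39 in the control. The shCdh1 pair lay below the other 2 by -2.04 ± 0.30 log2 for Trp53i11 and -1.76 ± 0.41 for Phlda3, and neither passed limma's test (adjusted p = 0.575 and 0.724). These 2 genes were picked after their values were seen, and between the tumour-derived samples genotype and slide cannot be told apart.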
